A study of Homo sapiens with 12 samples.

Results

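Transcripts of 10 human genes that report on and restrain the ERK pathway were followed in 2 liver cancer cell lines: DUSP4, DUSP5, DUSP6, SPRY2, SPRY4, SPRED1, ETV4, ETV5, CCND1 and PHLDA1. The genes were chosen by name for their roles in the pathway, and each probe was assigned by matching its transcript accession to a RefSeq gene symbol. All 10 genes were found among the 20503 genes that the probes named, with 11 probes, 2 of them for SPRY4. Each of the 11 probes was well above background on all 12 arrays. HA22T and PLC5 are established lines from human hepatocellular carcinoma, each grown in serum-containing medium and transfected for 48 h with 10 nM of a non-targeting siRNA (siControl) or of a pool of siRNAs against GALNT1 (siGALNT1). GALNT1 is an enzyme that starts mucin-type O-glycosylation, and the study asked which transcripts change when it is depleted. Each of the 4 groups of line and siRNA had 3 one-color arrays of total RNA. The protocols of the samples name no growth factor added before RNA extraction.

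The ERK cascade carries signals from receptor tyrosine kinases such as EGFR through RAS, RAF and MEK to the kinases ERK1 and ERK2. Active ERK induces transcription of its own inhibitors, among them dual-specificity phosphatases (DUSP) that dephosphorylate MAP kinases, and Sprouty and SPRED proteins that act further up, near RAS and RAF. It also raises PEA3 group ETS transcription factors (ETV4, ETV5) and the cell cycle gene CCND1, and the transcripts of these genes are widely read as a record of recent pathway activity.

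All levels below are log2 intensities relative to the 75th percentile of their array, and each is compared only with the same probe on other arrays. The arrays lie on 2 slides as the scanner files number them. One slide holds all 6 HA22T arrays and replicate 1 of both PLC5 groups, and the other holds PLC5 replicates 2 and 3. Differences between the lines are therefore given with the slide as a block as well. The slide term rests on PLC5 alone, replicate 1 against replicates 2 and 3, so slide cannot be told from PLC5 replicate. The blocked line difference leans mainly on PLC5 replicate 1, as a fit of the first slide alone does, so these are not separate checks. Between 36679 and 48873 of the 58717 spots per array that are not controls were well above background. The targeted transcript was checked first. GALNT1, read from its brighter probe, lay at 1.32, 0.75 and 0.85 with siControl and at -3.15, -3.68 and -5.55 with siGALNT1 in HA22T. In PLC5 it lay at 0.87, 0.37 and 0.61 with siControl and at -1.93, -3.47 and -3.92 with siGALNT1. The groups did not overlap in either line, as the labels say. PLC5 carried the hepatocyte transcripts of its labelled tissue, with 8 of 8 markers (ALB, TTR, APOA1, APOB, TF, SERPINA1, HNF4A, FGB) well above background on all 6 arrays. In HA22T only 3 of the 8 were well above background on all 6 arrays, and all 8 passed the threshold as lower than in PLC5 in both siRNA groups, several of them counted through PLC5 arrays alone. The epithelial keratins KRT8 and KRT18 lay between 5.02 and 7.23 on every array of both lines, but the other epithelial markers were low in both, CDH1 between -6.37 and -4.95 and EPCAM between -8.63 and -3.34. CDH1 was well above background on 9 of 12 arrays and EPCAM on 4. Of the mesenchymal markers VIM lay at 5.92 ± 0.39 in HA22T and 0.38 ± 0.60 in PLC5 with siControl (SD, n = 3), ZEB1 was higher in HA22T as well, and FN1 was lower there. Among markers of blood and endothelial cells, the probe for PTPRC was bright in both lines, between 4.25 and 6.02. PECAM1, CD3E, CDH5 and VWF lay at or below 2.46, with PECAM1 lower in HA22T and CD3E higher there with siGALNT1. How such marker levels bear on the genes below was not tested.

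Promoter sequence is shown for DUSP6 and SPRY2, 2 genes with large differences between the lines in opposite directions. RefSeq holds promoter entries for 5 of the 10 genes (DUSP6, SPRY2, SPRY4, SPRED1 and PHLDA1) on the build GRCh38.p14, with 3 entries for SPRY2, of which the one next to the outer end of the gene is shown. Each printed run is the 250 bases before the annotated start, on the strand of the gene. The DUSP6 run is chr12:89352502-89352751 on the minus strand and the SPRY2 run is chr13:80341127-80341376 on the minus strand. Capitals mark the ETS core letters CGGAA on either strand.
DUSP6: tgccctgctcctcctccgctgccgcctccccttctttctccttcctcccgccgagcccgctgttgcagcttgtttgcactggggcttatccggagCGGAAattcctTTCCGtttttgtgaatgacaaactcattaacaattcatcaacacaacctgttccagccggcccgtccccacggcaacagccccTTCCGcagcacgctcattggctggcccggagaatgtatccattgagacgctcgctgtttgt
SPRY2: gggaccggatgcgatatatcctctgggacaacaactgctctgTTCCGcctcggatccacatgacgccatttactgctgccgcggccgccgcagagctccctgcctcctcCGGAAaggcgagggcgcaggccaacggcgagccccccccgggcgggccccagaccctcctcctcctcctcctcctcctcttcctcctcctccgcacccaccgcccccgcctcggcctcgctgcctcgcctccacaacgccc
DUSP6 has 3 such matches and the SPRY2 run has 2, while the other 2 entries of SPRY2 have none. PHLDA1 has 2 in its window, and those of SPRY4 and SPRED1 have none. Of 35114 promoter windows of the same length, 30.3% hold the letters CGGAA. The AP-1 letters TGACTCA occur in 4.20% of windows and the CRE letters TGACGTCA in 1.65%, and neither occurs in the windows of these 5 genes. The matches in these windows are thus all to CGGAA, and they do not overlap. They describe letters only, and the arrays do not measure binding.

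The lines differed in 6 of the 10 genes with siControl, and the differences ran in both directions within each class of regulator. Higher in HA22T were SPRY2, ETV5 and DUSP4, and lower in HA22T were DUSP6, ETV4 and SPRY4. The 6 genes passed an adjusted p of 0.05 in limma (Benjamini-Hochberg over 38072 probes counted), where 22% of all probes tested did. With siGALNT1, 5 of the 10 passed, where 22.9% of probes did. Of all probes, 9.79% passed as higher and 13.1% as lower in HA22T, and 11% each way with siControl. The 5 genes had all passed with siControl in the same direction. The siGALNT1 comparison used other arrays, but both came from the same fit with a shared estimate of the spread. In HA22T, replicates of equal number also strayed from their group means together (correlations of 0.551, 0.403 and 0.431). In PLC5 the correlations were 0.706, -0.0226 and 0.164. The comparisons are therefore not separate checks. DUSP4 passed with siControl and not with siGALNT1. The median absolute difference of the 10 genes was 1.12 with siControl against 0.51 over all probes, and 0.79 with siGALNT1 against 0.57. Groups of the lines did not overlap for 6 of the 10 genes in each siRNA group, where 42.3% of probes with siControl and 39.8% with siGALNT1 did not overlap. An exact permutation test of 3 against 3 arrays cannot go below p = 0.1, which each of these 6 genes reached.

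Among the phosphatases, DUSP6, a cytoplasmic phosphatase that acts mainly on ERK, stood far lower in HA22T. With siControl it lay at 0.53, 0.51 and 1.06 in HA22T and at 3.47, 2.53 and 3.14 in PLC5. With siGALNT1 it lay at 0.12, 0.58 and 0.49 in HA22T and at 3.34, 2.81 and 2.47 in PLC5. Every PLC5 array was above every HA22T array, with a gap of 1.47 with siControl and 1.89 with siGALNT1. The difference (HA22T minus PLC5) was -2.35 ± 0.33 (SE) with siControl, a 5.08-fold lower level in HA22T, with an adjusted p of 0.000313 in limma. With siGALNT1 it was -2.48 ± 0.33, with an adjusted p of 0.000221 in limma, and with the slide as a block the 2 differences were -2.79 and -2.93.

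DUSP4, a nuclear phosphatase of ERK and other MAP kinases, ran the other way and by less. It lay at 2.65, 1.91 and 2.42 in HA22T and at 1.63, 1.11 and 1.25 in PLC5 with siControl, and at 2.13, 2.04 and 2.13 against 1.63, 1.35 and 1.31 with siGALNT1. HA22T arrays were above PLC5 arrays in both, but the gap was 0.28 and 0.41. The difference was 1.00 ± 0.26 (adjusted p = 0.0166 in limma) with siControl and 0.67 ± 0.26 (adjusted p = 0.0875) with siGALNT1. With the slide as a block the siControl difference was 0.75 with an adjusted p of 0.110, so the call did not hold. It was also lost without HA22T siControl replicate 1 (adjusted p = 0.0654) or 3 (0.0590), and without PLC5 siControl replicate 2 (0.0694) or 3 (0.0635). With siGALNT1 DUSP4 did pass under eBayes with a trend (adjusted p = 0.0466), under the methods' t-test (0.0360) and with the percentile taken after non-uniform spots were left out (0.0236). DUSP5, a nuclear phosphatase of ERK, differed by 0.26 ± 0.35 with siControl and 0.24 ± 0.35 with siGALNT1, and its groups overlapped in both. The 95% interval of the siControl difference ran from -0.51 to 1.04.

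The Sprouty genes split as the phosphatases did. SPRY2 lay at 1.19, 1.08 and 1.5 in HA22T and at -0.46, -1.11 and -0.65 in PLC5 with siControl. With siGALNT1 it lay at 0.95, 1.26 and 1.43 in HA22T and at -0.35, -0.65 and -0.47 in PLC5. All HA22T arrays were above all PLC5 arrays, with gaps of 1.54 and 1.30. The difference was 2.00 ± 0.26, a 4.00-fold higher level in HA22T (adjusted p = 0.000180 in limma), and 1.70 ± 0.26 with siGALNT1 (adjusted p = 0.000602). With the slide as a block it was 1.79 and 1.49.

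SPRY4 was lower in HA22T, by less than DUSP6. Its brighter probe lay at -0.05, 0.58 and 0.44 in HA22T and at 1.45, 1.59 and 1.65 in PLC5 with siControl, and at 0.69, 0.71 and 0.46 against 1.45, 1.22 and 1.91 with siGALNT1. The groups did not overlap. The difference was -1.23 ± 0.26 (adjusted p = 0.00526 in limma) with siControl and -0.91 ± 0.26 (adjusted p = 0.0273) with siGALNT1. The second SPRY4 probe gave -1.14 ± 0.29 (adjusted p = 0.0151) and -1.22 ± 0.29 (adjusted p = 0.0107) and did not overlap between lines either. With the slide as a block the brighter probe kept its call with siControl (-1.14, adjusted p = 0.0316) and lost it with siGALNT1 (-0.81, adjusted p = 0.0998), while the second probe kept both (adjusted p = 0.0125 and 0.00942). The siGALNT1 call of the brighter probe was also lost without HA22T siGALNT1 replicate 2 (adjusted p = 0.0585) or 3 (0.0847), and without PLC5 siGALNT1 replicate 1 (0.0568) or 3 (0.0778). SPRED1, a relative of the Sprouty proteins that recruits neurofibromin to restrain RAS, lay between -3.84 and -2.63 on all 12 arrays. It differed between lines by 0.53 ± 0.32 with siControl and 0.06 ± 0.32 with siGALNT1, neither past the threshold.

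The 2 ETS factors, close relatives of each other, moved apart between the lines. ETV4 lay at 1.25, 1.01 and 1.60 in HA22T and at 3.95, 2.86 and 3.09 in PLC5 with siControl. With siGALNT1 it lay at 1.27, 1.28 and 1.67 in HA22T and at 3.76, 3.07 and 2.62 in PLC5. Every PLC5 array was the higher, with replicate 1 highest in both PLC5 groups. The difference was -2.01 ± 0.36, a 4.03-fold lower level in HA22T (adjusted p = 0.00197 in limma), and -1.74 ± 0.36 with siGALNT1 (adjusted p = 0.00502). PLC5 replicate 1 shares the slide of the HA22T arrays, and with the slide as a block the difference grew to -2.64 and -2.37.

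ETV5 lay at -0.68, -1.21 and -1.10 in HA22T and at -3.09, -2.85 and -2.72 in PLC5 with siControl, and at -1.15, -1.28 and -1.10 against -2.91, -2.75 and -2.81 with siGALNT1. The HA22T arrays were all higher, with gaps of 1.52 and 1.47. The difference was 1.89 ± 0.23, a 3.71-fold higher level in HA22T, with the smallest adjusted p of the 10 genes (0.000116 in limma). With siGALNT1 it was 1.65 ± 0.23 (adjusted p = 0.000339), and with the slide as a block 2.04 and 1.79.

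Within the first slide alone, where each siRNA group of PLC5 is 1 array that is assumed to vary as the HA22T arrays do, the directions were the same for all 6 genes. With siControl the differences were -2.77 for DUSP6, -2.66 for ETV4, 1.72 for SPRY2 and 2.10 for ETV5, each past the threshold. They were -1.12 for SPRY4 (adjusted p = 0.155 in limma) and 0.70 for DUSP4 (adjusted p = 0.399), which did not pass. With siGALNT1 DUSP6 (-2.95), ETV4 (-2.35) and ETV5 (1.73) passed, SPRY2 (1.56, adjusted p = 0.0535) and SPRY4 (-0.83, adjusted p = 0.255) did not, and DUSP4 lay at 0.47 (adjusted p = 0.528).

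**Figure D1:**
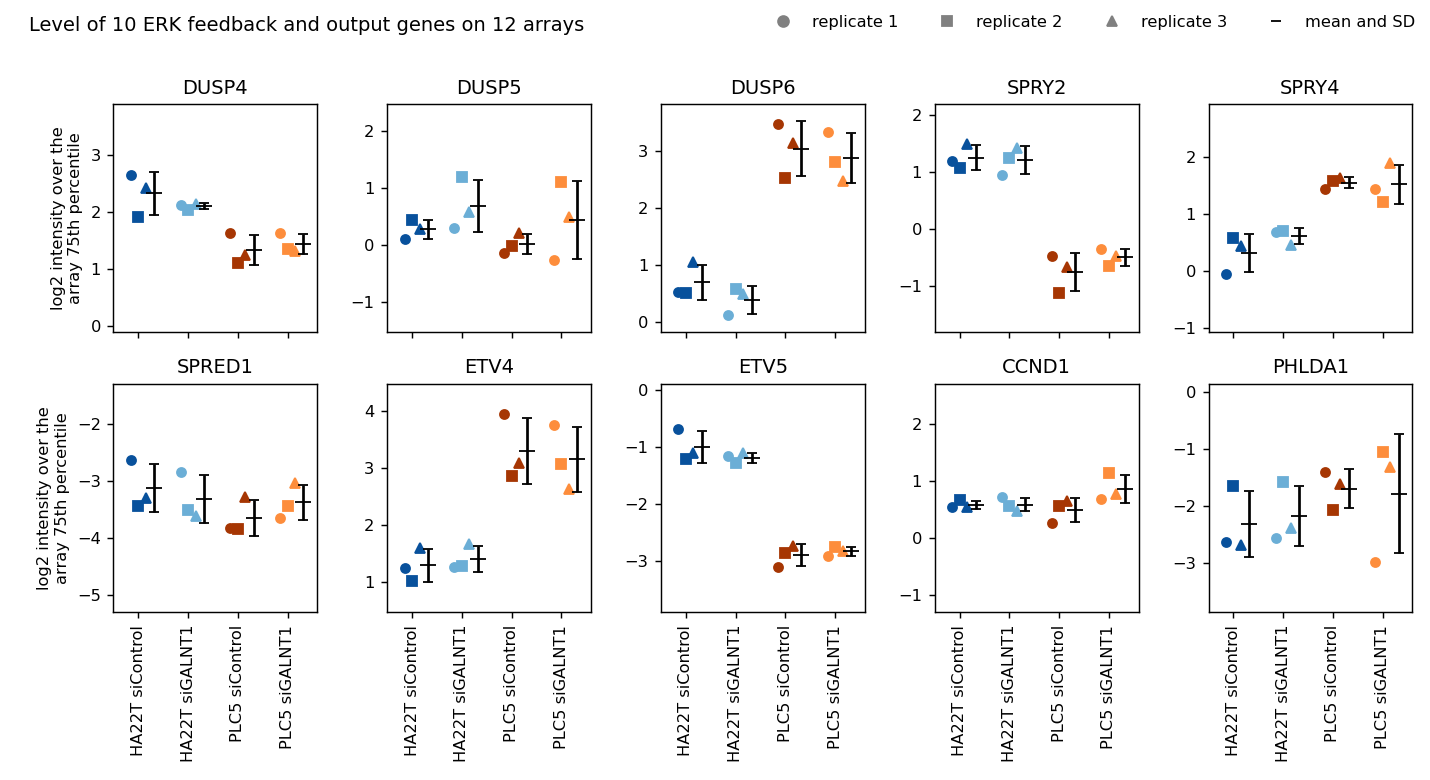
Each panel plots one gene; the y axis is the log2 intensity over the 75th percentile of the array (each panel spans 4 log2 units) and the x axis the 4 groups of 3 arrays, with symbols for replicates 1 to 3 and bars for the mean and SD. HA22T and PLC5 arrays separate for DUSP6, SPRY2, SPRY4, ETV4, ETV5 and, by a smaller gap, DUSP4, while siControl and siGALNT1 arrays of one line lie together.

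CCND1 and PHLDA1 did not differ between lines past the threshold. CCND1, the cyclin D1 gene that drives entry into the cell cycle, lay between 0.25 and 1.14 on all 12 arrays. It differed between lines by 0.09 ± 0.23 with siControl (95% interval -0.41 to 0.59) and by -0.28 ± 0.23 with siGALNT1 (-0.78 to 0.22), so both intervals lie within a 2-fold change. Its probe has 10 spots on each array, and their SD on the log2 scale was between 0.081 and 0.339. PHLDA1, which encodes a pleckstrin homology-like domain protein induced by growth factor signaling, varied most of the 10 genes within a group. It lay at -2.98, -1.06 and -1.32 in PLC5 siGALNT1, an SD of 1.04. Its line difference of -0.62 ± 0.50 with siControl and -0.39 ± 0.50 with siGALNT1 came with 95% intervals of -1.73 to 0.48 and -1.5 to 0.71, which hold 0 as well as changes of over 2-fold.

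**Figure D2:**
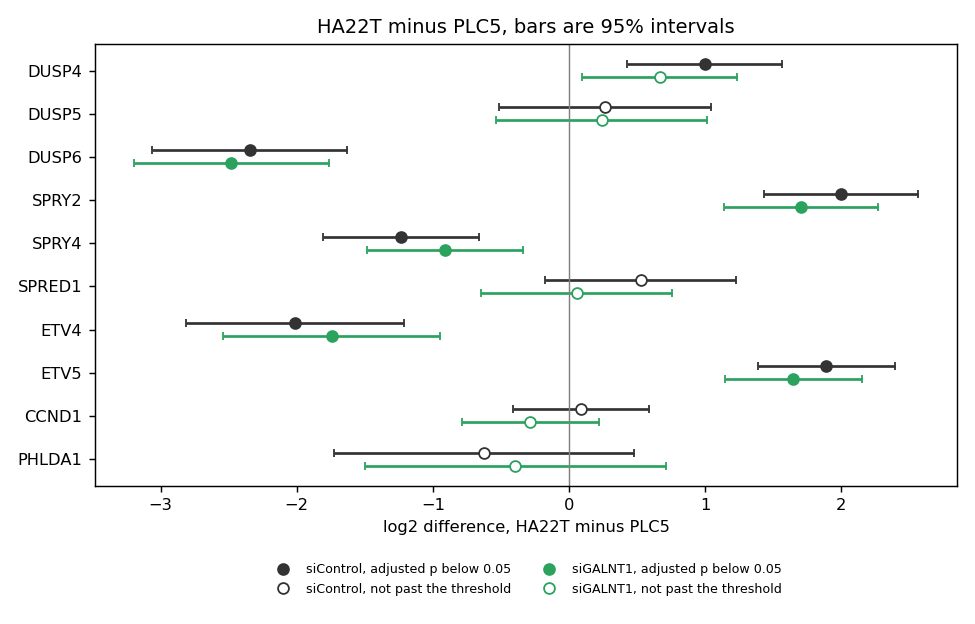
Log2 difference between the lines, HA22T minus PLC5 (x axis), for each of the 10 genes (y axis), with siControl in dark gray and siGALNT1 in green; filled points passed an adjusted p of 0.05 in limma and bars are 95% intervals. DUSP6, ETV4 and SPRY4 lie left of 0 and SPRY2, ETV5 and DUSP4 right of it in both siRNA groups, and DUSP4 is filled with siControl only.

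Knockdown of GALNT1 changed none of the 10 genes past the threshold in either line, and none had an unadjusted p below 0.05 in limma or in the methods' t-test. In HA22T 1 of 36392 probes passed (0.00275%, a GALNT1 probe) and 1091 (3%) had an unadjusted p below 0.05. In PLC5 0 of 38151 passed (0%) in limma, with 508 (1.33%) below an unadjusted p of 0.05. GALNT1, the silenced gene, was itself largely uncalled. Its brighter probe fell short of the threshold in both lines, with a change of -5.10 ± 0.61 in HA22T (adjusted p = 0.0709 in limma) and of -3.72 ± 0.61 in PLC5 (unadjusted p = 7.35e-05, adjusted p = 1.00). Its second probe passed in HA22T (-4.75, adjusted p = 0.0305) and not in PLC5 (-3.03). A gene that missed the threshold for siGALNT1 is therefore not shown to be unchanged. The median absolute change of the 10 genes was 0.19 in HA22T against 0.23 over all probes, and 0.16 in PLC5 against 0.16. No gene reached a change of 1.5-fold in either line (0 of 10). In HA22T 5 genes had a mean above and 5 a mean below siControl, and in PLC5 6 and 4.

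The changes can be bounded as well as called. In HA22T the 95% interval lay within a 2-fold change in either direction for 7 genes, and in PLC5 for 8. DUSP6 changed by -0.30 ± 0.33 in HA22T, with an interval from -1.02 to 0.41. In PLC5 it changed by -0.17 ± 0.33, with an interval from -0.88 to 0.55. DUSP5 had the largest mean change of the 10 in both lines, 0.41 ± 0.35 in HA22T and 0.43 ± 0.35 in PLC5, and its intervals reached 1.18 and 1.21. It was higher with siGALNT1 in 3 of 3 same-numbered pairs in HA22T, by 0.18, 0.75 and 0.30. It was 1 of 4 genes higher in all pairs there, and 2 were lower in all. In PLC5 its pairs gave -0.11, 1.13 and 0.28, while 4 others of the 10 genes were higher in all pairs and 0 lower in all. No share over all probes is given beside these pair counts, so they are not read as a result about the 10 genes. For DUSP5, siGALNT1 replicate 2 was the high array in both lines.

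CCND1 was the one gene whose siControl and siGALNT1 arrays did not overlap, and this held in PLC5. It lay at 0.25, 0.56 and 0.65 with siControl and at 0.68, 1.14 and 0.77 with siGALNT1. All siGALNT1 arrays were the higher, with a gap of 0.032. The change was 0.38 ± 0.23, with an interval from -0.12 to 0.88 and an unadjusted p of 0.127 in limma, and the exact p was 0.1. Of all probes in PLC5 4.1% did not overlap. In HA22T the change of CCND1 was 0.0044 ± 0.23, and its arrays overlapped, where 8.84% of probes did not overlap.

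For the other genes the changes with siGALNT1 in HA22T and in PLC5 were -0.23 and 0.10 for DUSP4, -0.045 and 0.25 for SPRY2, 0.29 and -0.033 for SPRY4, -0.20 and 0.28 for SPRED1. They were 0.12 and -0.15 for ETV4, -0.18 and 0.064 for ETV5, and 0.15 and -0.086 for PHLDA1. The siControl and siGALNT1 arrays of these genes overlapped in both lines. The mean of PHLDA1 in PLC5 joins opposite moves, since its pairs differed by -1.57, 1.01 and 0.30. No gene had an interaction of line and siRNA past the threshold (0 of 10, and 0 of 39175 probes, 0%), with 0 of the 10, against 2.44% of probes, below an unadjusted p of 0.05 in limma. The intervals of the interaction were wide, from -1.47 at the lowest to 1.79 at the highest over the 10 genes. No difference between the lines in their response was detected, which does not show that the responses were equal.

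**Figure D3:**
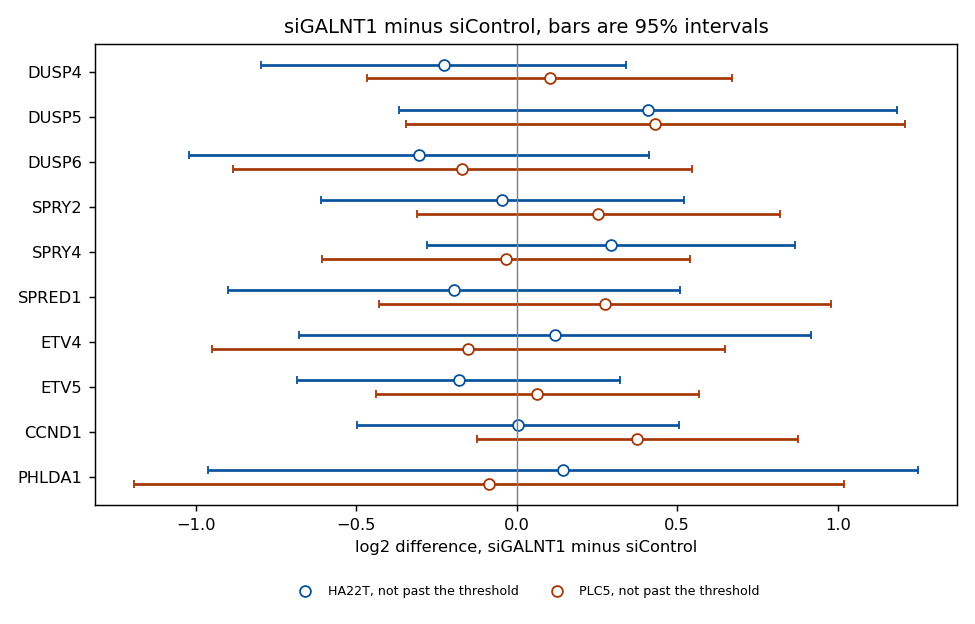
Log2 change with siGALNT1, siGALNT1 minus siControl (x axis), for each of the 10 genes (y axis) in HA22T (blue) and PLC5 (red-brown), with 95% intervals as bars; open points did not pass an adjusted p of 0.05 in limma. All points are open, all means lie between -0.30 and 0.43, and every interval includes 0.

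Other genes of the pathway were read from fixed lists, named by the largest differences past the threshold. Of 22 genes of the cascade itself, from the adaptor GRB2 to the kinases that ERK activates, 1 was higher and 1 lower in HA22T with siControl. These were MAP2K2, the gene of MEK2, at 1.34 ± 0.27 (adjusted p = 0.00360 in limma), and RPS6KA3, a kinase that ERK activates, at -2.64 ± 0.27. These 1 and 1 compare with 11% of all probes each way. With siGALNT1 1 was higher and 4 were lower, where 9.79% and 13.1% of probes were, and the 3 largest differences past the threshold were RPS6KA3 at -3.04, BRAF at -1.34 and MAP2K2 at 1.24. EGFR, the receptor at the top of the pathway, was read from its brightest probe, which matches a shorter transcript variant. It differed by 0.38 ± 0.23 with siControl (adjusted p = 0.275 in limma) and changed by 0.23 ± 0.23 with siGALNT1 in HA22T and 0.26 ± 0.23 in PLC5. Its next brightest probe, well above background on all 12 arrays, differed by 0.25 ± 0.37 between lines, and its change of -0.22 ± 0.37 in HA22T had the opposite sign, while that in PLC5 was 0.26 ± 0.37. None of these passed the threshold.

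Of 15 other feedback genes and negative regulators, 13 were counted in the line comparisons. SPRY1 was counted through PLC5 arrays and so could only be lower in HA22T. Without it, 2 genes passed with siControl and 3 with siGALNT1, all lower in HA22T. Of all probes, 11% passed as lower in HA22T with siControl and 13.1% with siGALNT1. DUSP9, a phosphatase related to DUSP6, differed by -2.53 ± 0.32 with siControl, and PEBP1 by -1.43 ± 0.28. SPRY1 was well above background on all 6 PLC5 arrays, on 1 of 3 HA22T arrays with siControl and on 0 of 3 with siGALNT1. Its HA22T siGALNT1 levels were raised to the dimmest signal well above background on each array. By means it was then 3.39-fold lower than in PLC5 siGALNT1. A probe can be brighter than that signal and still not be well above background, so this is not a strict bound. With siGALNT1 ERRFI1, an inhibitor of EGFR, was lower as well (-0.83).

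Of 14 other output genes, 5 were higher and 2 lower in HA22T in each siRNA group. Of all probes, 11% passed each way with siControl, and 9.79% as higher and 13.1% as lower with siGALNT1. FOSL1, a subunit of AP-1, differed by 5.56 ± 0.57 with siControl, AREG, a ligand of EGFR, by -5.29 ± 0.33, and EPHA2, an ephrin receptor, by 3.16 ± 0.29. ETV1, the third PEA3 factor, was higher in HA22T by 2.62 ± 0.28, as ETV5 was, while ETV4 was lower. Of the near relatives of CCND1 and PHLDA1, CCND3 was higher in HA22T by 1.95 ± 0.30. None of these lists held a gene past the threshold in limma for siGALNT1 in either line. The counts were 0 of 22 cascade genes, 0 of 14 output genes, 0 feedback genes and 0 relatives. At an unadjusted p below 0.05 in limma there was 1 output gene in HA22T, ETV1, and 0 genes in PLC5. Over all probes, 3% in HA22T and 1.33% in PLC5 were below it. ETV1 lay at 0.94, 0.89 and 1.21 with siControl and at 0.33, -0.10 and 0.63 with siGALNT1 in HA22T. The groups did not overlap, which held for 8.84% of all probes there. The change was -0.72 ± 0.28 (unadjusted p = 0.0254, adjusted p = 1.00 in limma), negative in 3 of 3 pairs, and in PLC5 it was 0.07 ± 0.28.

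**Figure D4:**
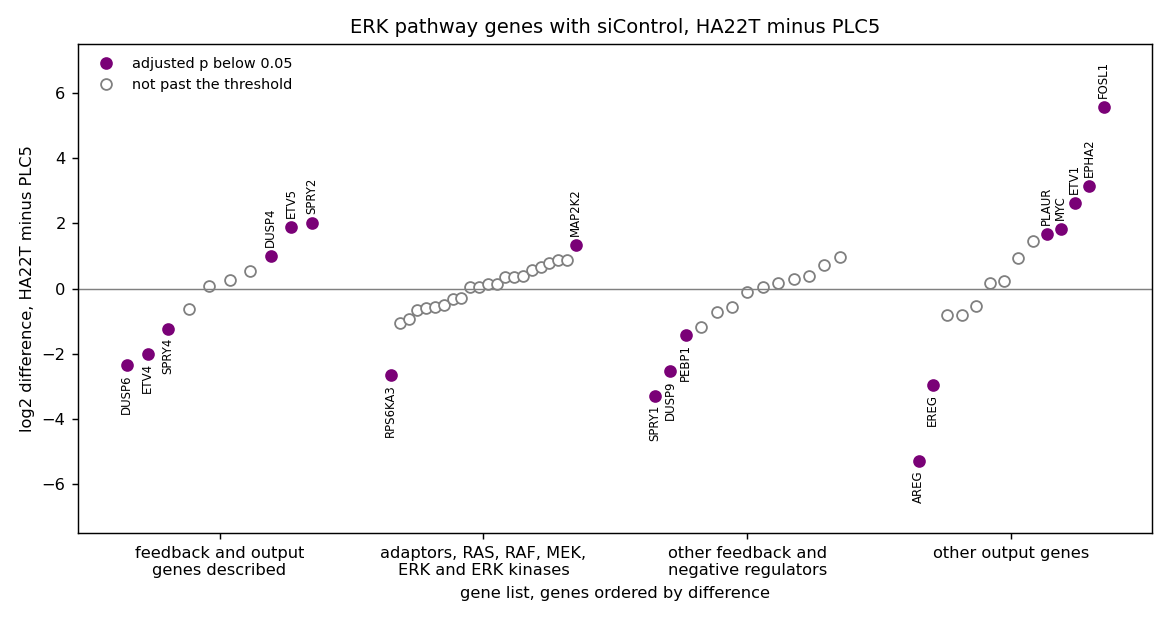
Log2 difference between HA22T and PLC5 with siControl (y axis) for the counted genes of 4 lists (x axis, ordered by difference within a list), with filled points past an adjusted p of 0.05 in limma. The 10 genes described have 3 filled points above and 3 below 0, and the cascade 1 and 1. The other feedback genes have 0 and 3, and the other output genes 5 and 2. SPRY1, 1 of the 3 feedback genes, was near background in HA22T. Of all probes, 11% passed each way.

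In HA22T, arrays of equal replicate number lay close together for the immediate early gene FOS, a subunit of AP-1. They did so as well for DUSP1, a nuclear MAP kinase phosphatase, except that its replicate 2 arrays differed by 0.77. Both genes were named after their values were seen. The immediate early gene EGR1 shared this in replicate 3 only, with differences of -0.88, -2.14 and 0.04 between its same-numbered HA22T arrays. Replicate 3 was its highest array in both HA22T groups, at 1.36 with siControl and 1.39 with siGALNT1, above lowest levels of -3.55 and -4.67. FOSL1 had close same-numbered HA22T arrays too, differing by 0.32, 0.28 and 0.28 over spans of 2.11 and 2.16, with replicate 1 highest. FOS lay at -1.18, 0.68 and 4.16 in HA22T siControl and at -1.48, 0.91 and 3.88 in HA22T siGALNT1. DUSP1 lay at -2.56, -0.82 and 0.50 with siControl and at -2.51, -0.05 and 0.47 with siGALNT1. The levels of FOS spanned 5.33 in HA22T siControl and 5.35 in HA22T siGALNT1. Among the 10 genes PHLDA1 in HA22T lay at -2.64, -1.66 and -2.68 with siControl and at -2.56, -1.58 and -2.39 with siGALNT1, and its pairs differed by 0.07, 0.07 and 0.29. The replicate 3 arrays that were high for FOS were not the high ones for PHLDA1. With the replicate number as a block none of the 10 genes changed past the threshold in HA22T (0), and the SE of the DUSP6 change there was 0.26 in place of 0.33.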

How the data were processed

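RNA of 4 groups of 3 samples was labeled and hybridized to one-color Agilent arrays. The authors deposited processed signal intensity values per spot, made with Agilent Feature Extraction 10.5.1.1, which subtracts background, and a table of log2 values per probe, which served here as an alternative. Each intensity was put on the log2 scale and the array's 75th percentile was subtracted. Controls and the non-uniform spots (489 to 3633 per array) were dropped and repeated spots averaged, giving 50599 probes, of which RefSeq accessions named 28174. Where a gene had several probes, the brightest with values in all groups stood for it.

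The 4 groups were fitted together with limma 3.58.1 in R 4.3.3, without covariates. A probe was counted when at least 3 of 6 arrays in the comparison had it well above background, and p-values were adjusted over them, with 0.05 as the threshold. Exact permutation tests were two-sided. The sources do not say that replicates were separate cultures, so p-values measure the spread between these samples, which may be technical. Less RNA per cell and fewer cells of a kind cannot be told apart in such samples. Correlations between arrays of a group were 0.969 to 0.988.

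The 10 genes and all lists were chosen with earlier results of these data known. Genes named are the 10, GALNT1, EGFR, and per list the 3 largest differences past the threshold, and any other was chosen after its values were seen. Deviations from the group means, taken between siControl and siGALNT1 arrays of equal number, correlated by 0.551, 0.403 and 0.431 in HA22T, above the limit of 0.1 for pairing, and by 0.706, -0.0226 and 0.164 in PLC5. This pairing comes from the values. The fit was also run on simulated data, and the outcome is not reported here. Alternatives were other background corrections, scalings, filters, priors, tests and blocks, and each array left out in turn. Results for a few genes of the lists are not reported here.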

Additional observations from a re-analysis of the deposited data

How the results depend on the processing

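Under no alternative did a line difference of DUSP6, SPRY2, SPRY4, ETV4, ETV5 or DUSP4 change direction. The genes called between lines with siGALNT1 fell from 5 to 3 with the first slide only. Probes called between lines fell to 3103 with siControl and 3136 with siGALNT1 on the first slide only, and with siGALNT1 to 5272 with the filter on all 6 arrays, 4108 with the methods' t-test and 5294 with only the groups compared. In HA22T the 1 probe called for siGALNT1 became 3 with normexp, a trend or a prior from counted probes, 2 with array weights and 0 with the filter on all 6 arrays, the slide block, the replicate block, the first slide or only the groups compared, and 0 to 2 with an array left out; in PLC5 normexp gave 2. None of the 10 genes was called for siGALNT1 under any of these, and the replicate block changed no call of theirs (0 in both lines). DUSP4 with siControl also missed the threshold under the methods' t-test, the first slide only and only the groups compared. With siGALNT1 SPRY4 missed it under the methods' t-test (adjusted p = 0.0781), only the groups compared (0.0993) and the percentile after non-uniform spots were left out (0.114), and ETV4 under the methods' t-test (0.0593). The count of cascade genes higher in HA22T with siControl rose from 1 to 2 with normexp and 4 with a trend, and that of cascade genes lower with siGALNT1 fell from 4 to 2 with median scaling or the slide block. The siGALNT1 change in HA22T turned sign for SPRY2 (0.19 with normexp, 0.050 with array weights, 0.079 with the percentile after non-uniform spots were left out, which was chosen after seeing the data) and for CCND1 (-0.0035 with normexp, -0.0021 with quantile normalization, -0.057 with median scaling, -0.044 with the deposited table, -0.029 without population outliers, -0.055 with array weights). In PLC5 it turned for DUSP5 (-0.11) and SPRY4 (0.0044) on the first slide, SPRY4 (0.088) as the mean of probes, ETV4 (0.0021) with array weights and PHLDA1 (0.082 with normexp, 0.056 with array weights). The line difference with siGALNT1 turned for SPRED1 (-0.12 with array weights) and PHLDA1 (0.059 with the slide block, 0.80 on the first slide), and the interaction for DUSP5 (0.52 on the first slide, 0.092 with that percentile). With an array left out, HA22T changes ranged from -0.16 to 0.088 for SPRY2, -0.43 to 0.049 for SPRED1, -0.018 to 0.28 for ETV4, -0.060 to 0.055 for CCND1 and -0.15 to 0.48 for PHLDA1. PLC5 changes ranged from -0.0064 to 0.25 for DUSP4, -0.43 to 0.043 for DUSP6, -0.22 to 0.12 for SPRY4, -0.45 to 0.18 for ETV4, -0.039 to 0.15 for ETV5 and -0.45 to 0.51 for PHLDA1. Line differences ranged from -0.030 to 0.17 for CCND1 with siControl, and from -0.11 to 0.57 for DUSP5 and -0.18 to 0.22 for SPRED1 with siGALNT1. Interactions ranged from -0.38 to 0.31 for DUSP5, -0.35 to 0.12 for DUSP6, -0.056 to 0.57 for ETV4 and -0.37 to 0.59 for PHLDA1. The cause of these changes was not tested. With 3 arrays a group, no siGALNT1 change of the 10 genes could be told from 0, and changes well under 2-fold could have been missed.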
